A study of Mus musculus with 2 samples.

Results

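The genes of cholesterol synthesis and of the SREBP2 pathway were followed in the liver of Pgrmc1 KO mice. They are 29 of the 24054 genes in the deposited expression table and were chosen by symbol for their known roles. Of these, 20 encode enzymes of sterol synthesis, 4 encode SREBP2 and the proteins that hold or move it, and 5 act in the uptake, transport and esterification of cholesterol. All 29 were found in the table, and each reached 1 TPM on average over the libraries, the lowest level at which genes are described here. TPM is the share of the transcript pool that a gene takes per length of transcript, so TPM levels can be compared between genes.

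Whole-liver RNA of male C57BL/6 mice aged 8 to 12 weeks was sequenced. The Pgrmc1 KO mice (Pgrmc1 -/Y) lacked exons 1 and 2 of the X-linked Pgrmc1 gene throughout the body, after deletion by a Sox2-Cre transgene that acts in the early embryo, and the WT mice carried an intact gene. The floxed allele was made in C57BL/6N, and the Cre line was B6.Cg-Tg(Sox2-cre)1Amc/J. Pgrmc1 encodes a heme-binding membrane protein of the endoplasmic reticulum that binds cytochromes P450. RNA of 5 mice per genotype, 2.5 μg each, was pooled before library preparation, so there was 1 library per genotype. The mice of a pool cannot be told apart, so no value has an error between animals, and no p-value is given. Every change is the log2 of KO over WT with 1 TPM added to each, which makes the changes of low genes appear smaller than they are. Its 95% interval is a Clopper-Pearson interval of the ratio of the authors' library means, from estimated reads, and covers counting error only.

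Pgrmc1 (chromosome X, 36598193 to 36606079 of GRCm38) was at 949.49 and 0.68 TPM in the WT and KO libraries, a log2 change of -9.14, which follows the labels. The estimated reads on genes came to 22086692 in KO and 29710419 in WT. Over the 11623 genes that reached an average of 1 TPM the median log2 change was -0.013, with 6257 (53.8%) below 0 and 5319 above. Hepatocyte markers made up most of the transcript pool among the marker lists, with sums of 77099 and 73197 TPM in WT and KO, and 9 of 9 were below 0 with a median of -0.087, although on the authors' library means the interval of Apoa1 lay above 0 (0.0078 to 0.028). Kupffer cell markers were above 0 for 9 of 9 genes with a median of 0.17, and endothelial markers were below 0 for 8 of 8 genes with a median of -0.096. Stellate and mural cell markers were below 0 for 8 of 10 genes with a median of -0.18, as were 3 of 4 cholangiocyte markers (-0.12, with Krt7 and Cftr under 1 TPM) and 3 of 5 red cell genes (-0.14). In whole liver, fewer cells of a type and less RNA per cell cannot be told apart.

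Cholesterol is built from acetyl-CoA through mevalonate, the prenyl diphosphates, squalene and lanosterol, and the liver is a main site of this synthesis. The transcription factor SREBP2 is made as a membrane protein of the endoplasmic reticulum, where INSIG proteins hold its escort SCAP while sterols are plentiful. When membrane sterol falls, SCAP carries SREBP2 to the Golgi, proteases release its active part, and this part enters the nucleus and switches on the genes of sterol synthesis and uptake by binding sterol regulatory elements near their start sites, usually beside bound NF-Y or Sp1.

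The DNA just before the start site, where such elements usually lie, is shown for 4 members, chosen because Hmgcs1 had the highest change, Cyp51 the lowest change of the enzymes and Insig1 the lowest of the members above 100 TPM, and because Srebf2 encodes SREBP2 itself. Each run holds the 220 bases before the gene's start, from RefSeq on GRCm38.p6, 5′ to 3′ in the direction of transcription. Capitals mark matches on either strand to the sterol regulatory element TCACNCCAC with at most 1 mismatch and to the NF-Y motif CCAAT. The regions are chr13:119690131-119690350 (plus strand) for Hmgcs1, chr15:82147049-82147268 (plus strand) for Srebf2, chr5:4104698-4104917 (minus strand) for Cyp51 and chr5:28071192-28071411 (plus strand) for Insig1.
Hmgcs1: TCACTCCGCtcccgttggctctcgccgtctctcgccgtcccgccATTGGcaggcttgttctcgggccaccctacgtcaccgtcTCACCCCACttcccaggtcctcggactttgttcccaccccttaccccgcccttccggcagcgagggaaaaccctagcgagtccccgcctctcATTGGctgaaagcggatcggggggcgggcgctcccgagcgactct
Srebf2: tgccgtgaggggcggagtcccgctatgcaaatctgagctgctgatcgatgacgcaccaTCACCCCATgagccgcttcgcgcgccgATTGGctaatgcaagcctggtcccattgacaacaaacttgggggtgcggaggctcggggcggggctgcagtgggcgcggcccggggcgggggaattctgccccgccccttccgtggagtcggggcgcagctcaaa
Cyp51: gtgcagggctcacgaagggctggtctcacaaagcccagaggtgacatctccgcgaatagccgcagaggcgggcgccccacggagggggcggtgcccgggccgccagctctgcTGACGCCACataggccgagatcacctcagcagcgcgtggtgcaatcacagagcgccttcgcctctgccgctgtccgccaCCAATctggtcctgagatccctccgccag
Insig1: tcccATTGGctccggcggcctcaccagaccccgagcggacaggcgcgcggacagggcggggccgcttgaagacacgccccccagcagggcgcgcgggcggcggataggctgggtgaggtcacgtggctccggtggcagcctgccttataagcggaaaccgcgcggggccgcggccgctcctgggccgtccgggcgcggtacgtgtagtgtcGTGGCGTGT

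Promoter windows from 250 bases before to 50 bases after the start were found for 23 of the 29 members. Fdps, Fdft1, Sqle, Stard4, Npc1 and Soat2 are not in that table. An exact TCACNCCAC was present in 1 of the 23, Hmgcs1, beginning 137 bases before its start, against 1.44% of all 27025 genes in the table. The overlapping motif CACCCCAC was present in 2, Acat2 and Hmgcs1, against 3.30% of all genes. With 1 mismatch allowed, a search chosen after the values were seen, TCACNCCAC was found in 11 of the 23 members (47.8%) against 26.7% of all genes. These 11 were Acat2, Hmgcs1, Cyp51, Msmo1, Nsdhl, Hsd17b7, Dhcr7, Srebf2, Insig1, Insig2 and Mylip. CCAAT was present in 21 of the 23 members (91.3%) against 41.1% of all genes, and the Sp1 motif GGGCGG in 21 (91.3%) against 38.2%, all counted on both strands. The 27025 genes were not limited to those that average 1 TPM or more in these libraries, as all members do. Shares among expressed genes alone were not taken. A match describes the letters of the window and is not a measured binding site. The members with a match to TCACNCCAC at up to 1 mismatch had a median log2 change of -0.034 and those without had -0.093.

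The whole group shifted little. None of the 29 members reached the fold of 1.4 used for genes up (1.21% of the 11623 genes did) and none the fold of 0.6 used for genes down (0.301%). No member was higher by 10% or more, as 15.0% of genes were. In contrast, 11 of 29 members (37.9%) were lower by 10% or more, a fold of at most 0.9, against 15.6% of genes, and 2 of 29 (6.90%), Insig1 and Mylip, were lower by 20% or more, against 3.40% of genes. Of the 29, 25 (86.2%) had a log2 change below 0, against 53.8% of genes, and this count was 22 when the authors' library means replaced TPM and 23 when changes were centred on the median gene. The counting interval lay below 0 for the same 11 members (37.9%, against 13.4% of genes), above 0 for Hmgcs1 alone (11.7% of genes) and across 0 for the other 17. Read numbers set the width of these intervals, so the same shares were taken over the genes that average 10 TPM or more. There, 10 of 26 members (38.5%) were lower by 10% or more against 13.9% of genes, and the interval was below 0 for 10 of 26 members (38.5%) against 18.8% of genes. The median log2 change of the members was -0.048. Their summed level was 3169.22 and 2921.39 TPM in WT and KO, a ratio of 0.922, and the 20 enzymes alone had sums of 2404.13 TPM and 2229.37 TPM, a ratio of 0.927.

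**Figure D1:**
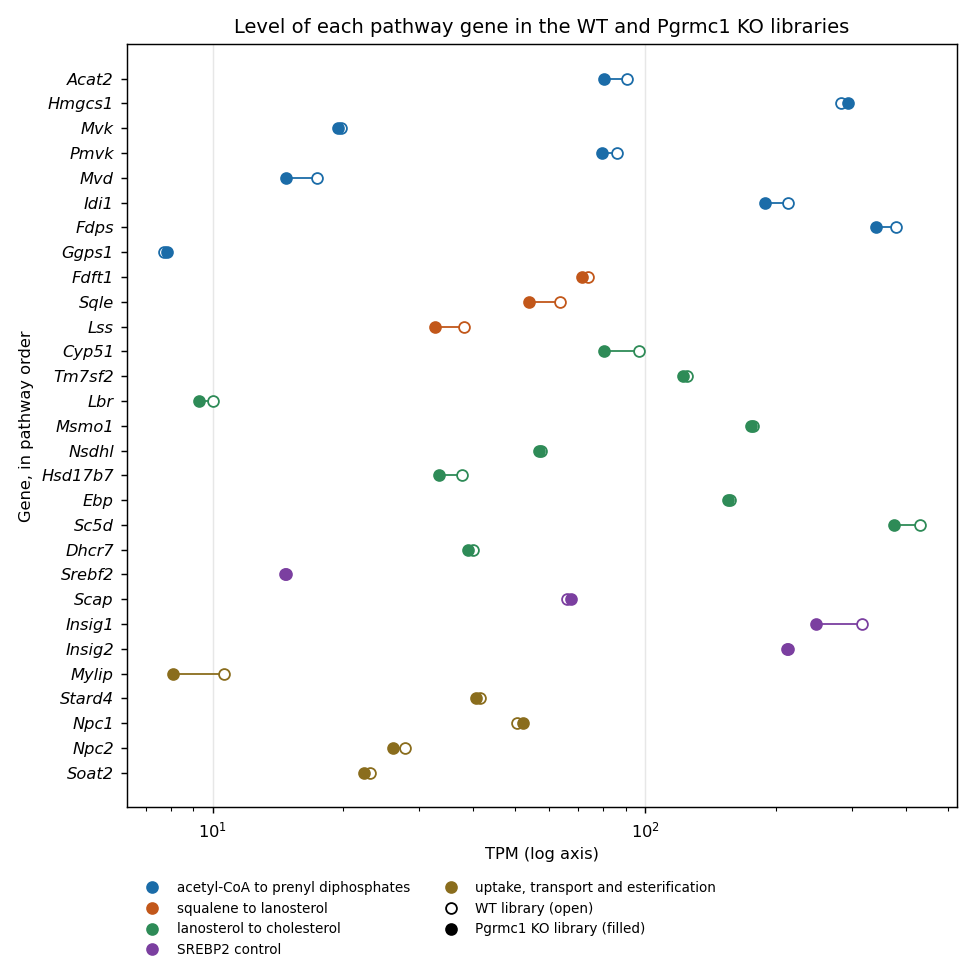
TPM (log axis) of each of the 29 genes in pathway order, in the WT library (open circles) and the Pgrmc1 KO library (filled circles), coloured by step. Most pairs of circles touch, and the widest gaps are those of Insig1, Mylip, Cyp51, Sqle and Mvd, with KO below WT.

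Levels spanned a wide range. Sc5d was the most abundant member in WT at 430.44 TPM and Ggps1 the least at 7.73 TPM, and 9 members had at least 100 TPM in WT. The change showed little order with the level. The 17 members with at least 50 TPM in WT had a median log2 change of -0.047 and the 12 below 50 TPM had -0.069, and Spearman's rho between log2 change and log2 WT TPM over the 29 genes was -0.049, given as a description since the genes share both libraries. Precision did follow the level. Estimated reads per member and library ran from 242 for Ggps1 in KO to 18023 for Hmgcs1 in WT, and the distance from the middle to the end of an interval from 0.032 to 0.25 with a median of 0.081, so small changes of the low members were not detectable at this depth.

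The first 8 genes lead from acetyl-CoA to the prenyl diphosphates, with a median log2 change of -0.13. Of these 8, 4 were lower by 10% or more, against 15.6% of all genes. Acat2, the cytosolic thiolase that joins acetyl-CoA units at the head of the pathway, was at 90.79 and 80.17 TPM in WT and KO, a log2 change of -0.18 (interval -0.25 to -0.087). It shares 28.9% of its 100-base windows with Acat3, a near-identical copy at 230.70 and 224.95 TPM in WT and KO, and the sum of both genes had a log2 change of -0.075, so the Acat2 value is uncertain. Hmgcs1 (chromosome 13, 119690351 to 119708260), the cytosolic HMG-CoA synthase and a classical SREBP2 target, stood at 283.17 and 293.31 TPM in WT and KO. Its log2 change of 0.051 (interval 0.031 to 0.095) was the highest of the 29 and the only one with an interval above 0.

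The mevalonate enzymes follow. Mvk, mevalonate kinase, was nearly level at 19.83 and 19.49 TPM in WT and KO (-0.024, interval -0.20 to 0.18). Pmvk, the next kinase, was at 85.91 and 79.53 TPM in WT and KO (-0.11, interval -0.20 to 0.017). Mvd, the decarboxylase that makes isopentenyl diphosphate, was at 17.38 and 14.78 TPM in WT and KO, the lowest change of this step at -0.22, with a wide interval of -0.43 to -0.021 on 330 estimated KO reads. The Mvk and Pmvk intervals hold 0, and that of Mvd ends just below it.

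The prenyl diphosphate enzymes were among the abundant members. Idi1, the isopentenyl diphosphate isomerase, was at 213.41 and 189.37 TPM in WT and KO (-0.17, interval -0.20 to -0.12). Fdps, which makes farnesyl diphosphate, was at 379.66 and 340.90 TPM in WT and KO (-0.15, interval -0.18 to -0.079), just past the 0.9-fold limit. Both share windows with pseudogene-like or unnamed genes, 15.8% for Idi1 and 21.4% for Fdps. Ggps1, which turns farnesyl diphosphate to geranylgeranyl diphosphate for protein prenylation and so leads away from sterols, did not share this direction, at 7.73 and 7.83 TPM in WT and KO (0.016, interval -0.22 to 0.28).

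The short stretch from farnesyl diphosphate through squalene to lanosterol had the lowest median of the steps, -0.22 over 3 genes, and its summed level was 174.97 and 157.66 TPM in WT and KO, a ratio of 0.901. Fdft1, squalene synthase, the first enzyme committed to sterols, was at 73.60 and 71.21 TPM in WT and KO (-0.047, interval -0.11 to 0.037). Sqle, squalene epoxidase, a rate-limiting oxygen-dependent enzyme, was at 63.34 and 53.87 TPM in WT and KO (-0.23, interval -0.30 to -0.14). Lss, which closes the sterol rings, was at 38.03 and 32.58 TPM in WT and KO (-0.22, interval -0.31 to -0.11). Sqle and Lss were thus lower together, while Fdft1 just ahead of them was near level.

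**Figure D2:**
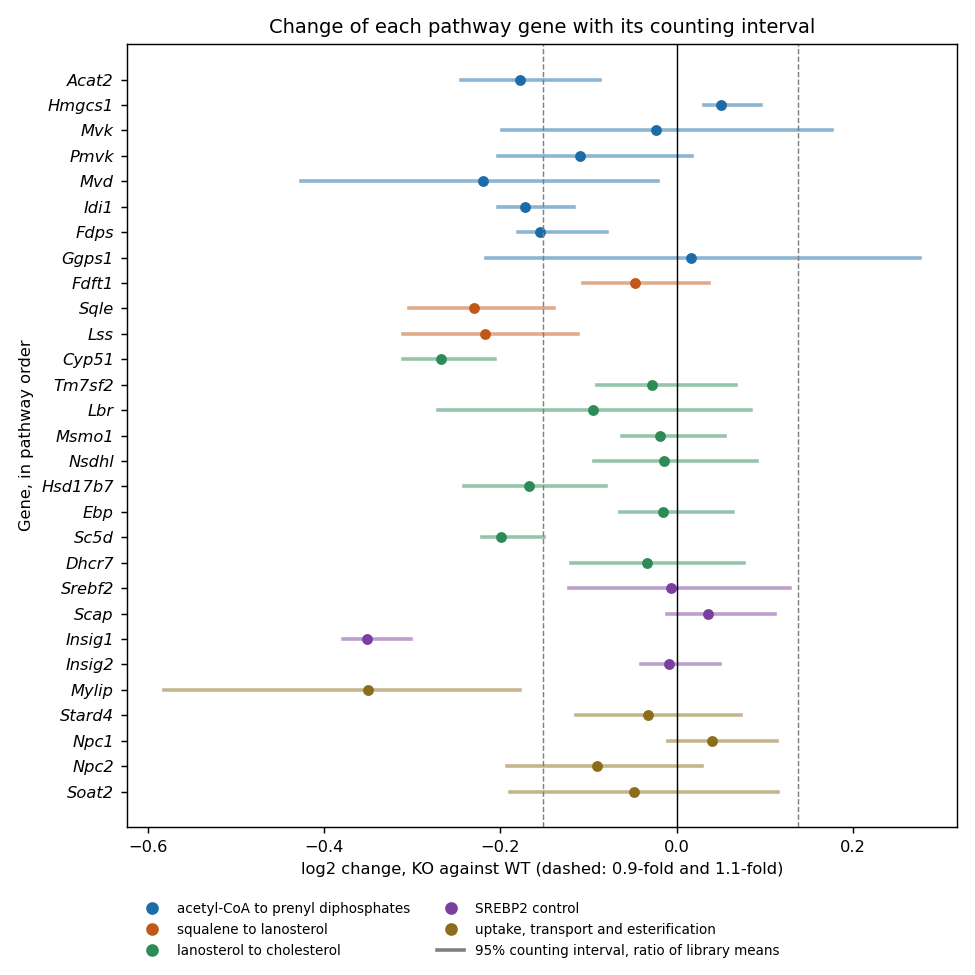
Log2 change (KO against WT, x axis) of each of the 29 genes in pathway order, with points from TPM and bars for the 95% counting interval of the ratio of library means. Dashed lines mark 0.9-fold and 1.1-fold. In each of the 5 groups at least 1 gene lies left of the 0.9-fold line, none lies right of the 1.1-fold line, and 17 bars cross 0.

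The 9 genes from lanosterol to cholesterol were all below 0, against 53.8% of all genes, but most by little, with a median of -0.034. On the authors' library means Ebp lay at 0.00044, just above 0. Cyp51 (chromosome 5, 4080674 to 4104697), the lanosterol demethylase and the cytochrome P450 of the pathway, was at 96.82 and 80.30 TPM in WT and KO. Its log2 change of -0.27 (interval -0.31 to -0.21, on 4736 estimated reads in KO and 7652 in WT) was the lowest of the 20 enzymes, and 5.32% of all genes described were at or below it. The next reaction can be run by either of a pair of sterol reductases, Tm7sf2 and the nuclear envelope protein Lbr. Tm7sf2 made up 92.6% of their summed TPM in WT and 92.9% in KO. Its level was 124.49 TPM in WT and 122.10 TPM in KO (-0.028, interval -0.090 to 0.068), and Lbr was at 10.01 TPM and 9.31 TPM (-0.095, interval -0.27 to 0.085), so the balance between them was alike in both libraries.

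Msmo1, Nsdhl and Hsd17b7 encode an oxidase, a dehydrogenase and a ketoreductase that together remove the methyl groups of the sterol ring. Msmo1 was at 177.50 and 175.19 TPM in WT and KO (-0.019, interval -0.062 to 0.055), and X-linked Nsdhl at 57.46 TPM and 56.87 TPM (-0.015, interval -0.094 to 0.092). Hsd17b7 was at 37.61 and 33.39 TPM in WT and KO (-0.17, interval -0.24 to -0.080). Of this trio Hsd17b7 alone was lower by 10% or more.

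The late enzymes differed in the same manner. Ebp, the X-linked sterol isomerase, was at 157.04 and 155.41 TPM in WT and KO (-0.015, interval -0.064 to 0.064). Sc5d, the sterol desaturase and the most abundant member, was at 430.44 and 374.79 TPM in WT and KO (-0.20, interval -0.22 to -0.15), and its difference of -55.65 TPM (KO minus WT) was most of the difference of this step, whose sums were 1131.28 and 1046.33 TPM in WT and KO. Dhcr7, the reductase that follows Sc5d, was at 39.91 and 38.97 TPM in WT and KO (-0.034, interval -0.12 to 0.077). Sc5d alone of these neighbours had an interval below 0.

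Among the genes that control SREBP2, the factor and its escort were level and Insig1 was not. Srebf2 was at 14.75 and 14.68 TPM in WT and KO (-0.0064, interval -0.12 to 0.13). Scap was at 65.77 and 67.43 TPM in WT and KO (0.035, interval -0.011 to 0.11), so the ratio of Scap to Srebf2 TPM was 4.46 in WT and 4.59 in KO. Insig1 (chromosome 5, 28071412 to 28078662), the retention protein whose gene is itself switched on by SREBP2, was at 316.99 and 248.17 TPM in WT and KO. Its log2 change of -0.35 (interval -0.38 to -0.30, on 8670 estimated reads in KO and 14821 in WT) was the lowest of the 29, and 310 of the 11623 genes (2.67%) were at or below it. Mylip was level with it at -0.35, and lay lower with 0.1 TPM added in place of 1 (-0.38 against -0.35) and on the authors' library means (-0.38 against -0.34). Insig2, the other retention protein, known for its control by bile acid and insulin signals rather than by SREBP2, was at 213.87 and 212.53 TPM in WT and KO (-0.0090, interval -0.041 to 0.050). Insig1 accordingly made up 59.7% of the summed TPM of both INSIG genes in WT and 53.9% in KO, and the sum was 530.86 TPM in WT and 460.70 TPM in KO.

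Of the 5 genes of uptake, transport and esterification, Mylip was the exception. Mylip (chromosome 13, 45389742 to 45411940) encodes a ubiquitin ligase that limits lipoprotein uptake and is induced by the sterol sensor LXR. It was at 10.59 and 8.09 TPM in WT and KO (-0.35, interval -0.58 to -0.18, on 320 estimated reads in KO and 562 in WT), level with Insig1 in size but with a far wider interval. Stard4, a cytosolic sterol carrier, was at 41.55 and 40.62 TPM in WT and KO (-0.032, interval -0.11 to 0.073). Npc1 and Npc2 hand cholesterol out of late endosomes. Npc1 was at 50.58 and 52.05 TPM in WT and KO (0.041, interval -0.0100 to 0.11), and Npc2 at 27.85 TPM and 26.10 TPM (-0.090, interval -0.19 to 0.029). Soat2, which esterifies cholesterol in hepatocytes, was at 23.14 and 22.35 TPM in WT and KO (-0.048, interval -0.19 to 0.11). All 4 of these intervals hold 0.

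Few members lay outside the range of abundant genes. Among the 6235 genes that average 10 TPM or more, the 5th and 95th percentiles of the log2 change were -0.25 and 0.20, and Insig1, Mylip and Cyp51 lay below the lower bound, Mylip itself averaging less than 10 TPM. Such bounds leave 5% of the genes on each side. At -0.25 or below lay 10.3% of the members and 6.23% of all genes that average 1 TPM or more. In all, 15 members were within 5% of the WT level, among them Hmgcs1, Fdft1, Msmo1, Insig2 and Srebf2. For comparison, 48.3% of the members and 32.7% of all genes lay at a log2 change of -0.07 or below. At 0.07 or below lay 100% of the members and 73.5% of all genes. Of the 20 enzymes, 18 were below 0, against 53.8% of genes, and Hmgcs1 and Ggps1 were above 0. The counting interval lay below 0 for 9 of the 20 enzymes, against 13.4% of genes and 18.8% of those that average 10 TPM or more. Most of the enzymes average that much, and the 9 include Acat2, whose value is uncertain. The part of SREBP2 in these values was not tested.

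**Figure D3:**
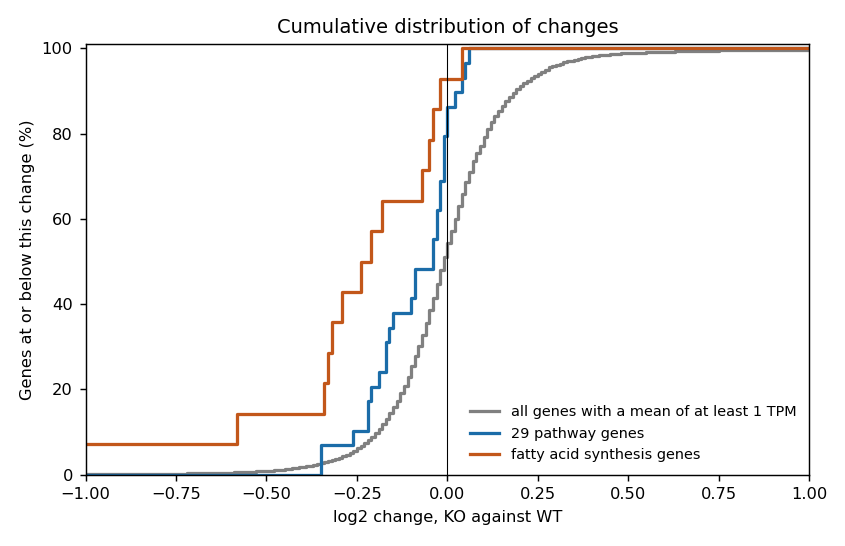
Cumulative share of genes (y axis, %) at or below a given log2 change (x axis) for all genes that average 1 TPM or more (grey), the 29 pathway genes (blue) and the fatty acid synthesis genes (orange). The blue curve runs left of the grey curve from -0.35 upward and reaches its top at 0.051 (Hmgcs1), and the orange curve lies further left, with medians of -0.013, -0.048 and -0.23.

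The wider sterol pathway gave no common direction. Of 34 further genes above the same level limit, 16 were below 0 and 18 above, 6 were lower and 5 higher by 10% or more, and none reached a fold of 1.4 or 0.6. Of all genes 53.8% were below 0, and 15.6% were lower and 15.0% higher by 10% or more. The 8 genes of SREBP cleavage and sterol-regulated degradation had a median of -0.026, and the lowest was Mbtps2, a protease that cleaves SREBPs (3.93 TPM in WT, 3.45 TPM in KO, -0.15, interval -0.43 to 0.066). The 10 genes of the isoprenoid branches had a median of 0.0014, from Pdss1 of ubiquinone synthesis (2.10 TPM in WT, 1.65 TPM in KO, -0.23) to the farnesyltransferase subunit Fntb (1.53 TPM in WT, 2.11 TPM in KO, 0.30), and both intervals hold 0. The lines of protein prenylation and ubiquinone synthesis that draw on the same precursors were thus spread around 0.

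Sterol efflux was divided. The 8 LXR and efflux genes had a median of 0.041, with 3 below 0. The lowest was Abcg8 (46.26 TPM in WT, 37.56 TPM in KO, -0.29, interval -0.36 to -0.19), which with Abcg5 pumps sterols into bile. The highest was Nceh1, a cholesteryl ester hydrolase (12.71 TPM in WT, 14.69 TPM in KO, 0.19, interval 0.087 to 0.35). Abcg5, named after its value was seen as the partner of Abcg8, was lower alike at 49.67 and 40.64 TPM in WT and KO (-0.28, interval -0.38 to -0.17), while the LXR target Abca1, also named after its value was seen, was at 71.30 TPM and 72.81 TPM (0.030). Mylip, Abcg5 and Abcg8 were thus lower, and Abca1 lay just above 0 (interval 0.0033 to 0.077). In all, 5 of the 8 listed genes were above 0. Abcg1 (0.067) and Lpcat3 (0.052), also named after their values were seen, were among them, with intervals that hold 0. The part of LXR in these values was not tested. The 8 of 9 sterol transport genes above the level limit ran from Osbp (33.22 TPM in WT, 27.76 TPM in KO, -0.25) to Soat1 (2.72 TPM in WT, 3.26 TPM in KO, 0.20), with a median of -0.026 and 4 below 0.

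Fatty acid synthesis, the branch of lipid synthesis under the related factor SREBP1c, was set beside the members. Of its 15 listed genes 14 were above the level limit, and of these 13 were below 0, 9 were lower by 10% or more and 12 had a counting interval below 0. Of all genes 53.8% were below 0 and 15.6% lower by 10% or more. The interval was below 0 for 18.8% of the genes that average 10 TPM or more, as these 14 do. The median was -0.23, against -0.048 for the 29 members, and the summed level was 8142.33 and 5938.43 TPM in WT and KO, a ratio of 0.729 against 0.922. The list ran from Thrsp, a lipogenic protein of the liver (387.02 TPM in WT, 186.89 TPM in KO, -1.05), to the carboxylase gene Acacb (43.78 TPM in WT, 44.75 TPM in KO, 0.031). The difference between both groups of genes was not tested, since each rests on the same 2 libraries.

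**Figure D4:**
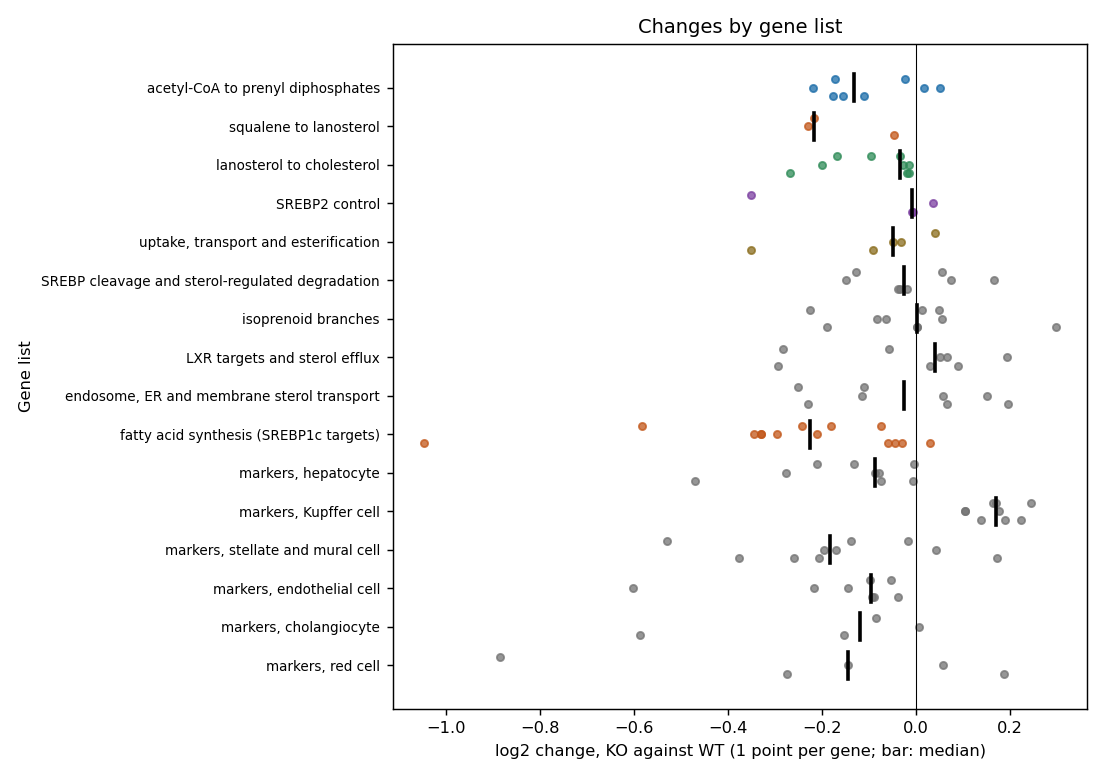
Log2 change (KO against WT, x axis) of every gene that averages 1 TPM or more, 1 point per gene with a bar at the median, for the 5 steps of the pathway, the further sterol lists, fatty acid synthesis and the cell type markers. The pathway steps have medians from -0.22 to -0.0077, fatty acid synthesis is lower at -0.23, and Kupffer cell markers are above 0.

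Other measures moved between the libraries as well. Evening-phase clock genes were below 0 for 9 of 9 genes with a median of -0.35, and morning-phase clock genes were above 0 for 5 of 5 genes with a median of 0.22. Of all genes 53.8% were below 0. Sterol synthesis genes are known to follow the feeding rhythm in liver, and the part of clock phase in the values of the members was not tested. The sum of the hepatocyte markers stood at a KO to WT ratio of 0.949, and the enzymes at 0.927. Alb alone held 49729 of the 77099 TPM of that marker sum in WT. By median log2 change the hepatocyte markers were at -0.087, the 20 enzymes at -0.10 and the 29 members at -0.048. Marker changes ran from Ass1 at -0.47 to Apoa1 at -0.0037 in hepatocytes, and the part of cell composition in the members' values was not tested.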

How the data were processed

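Liver RNA of 5 male mice per genotype was pooled, and a stranded total RNA kit gave 1 library for each genotype. The submitters' processing notes name CASAVA 1.8.2, RSEM 1.2.09 and Bowtie, and the mm10 build. The authors deposited posterior mean TPM per gene for 24054 genes, which add up to 1005325 (KO) and 994702 (WT). A further deposited table of 16318 genes holds the authors' mean signal per library, that is, estimated reads scaled by size factors, whose condition columns were mapped to KO and WT by the study's labelled table, where 1997 of 1997 genes matched. Its fold changes and probabilities are the authors' own comparison and were not used.

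The log2 ratio of KO TPM + 1 to WT TPM + 1 was taken for genes that average 1 TPM or more. The mean signal was divided by the value of 1 read (1.162 in KO, 0.860 in WT) and rounded to whole reads for Clopper-Pearson intervals at 95%, which cover counting error only. With 1 library per genotype no test was run. RSEM divides reads that match several genes between them, so members with near-identical copies are less certain, and shared 100-base windows were counted in GENCODE transcripts. Hmgcs1, Idi1, Ggps1, Fdft1, Lss, Cyp51, Lbr, Scap and Npc1 overlap exons of genes on the opposite strand, which a stranded library separates, and Fdps, Tm7sf2 and Lbr overlap exons of genes on their own strand. Named genes were Pgrmc1, all 29 members, and the highest and lowest gene of each other list described, of which 1 is not reported here. The members and lists were chosen with earlier results of these data known. The listed markers Tf and Adgre1 were not analysed here. Intervals and the calls at folds of 1.4 and 0.6 were tested on simulated data, in genes that average 10 TPM or more. The simulated reads held counting error alone, as the intervals assume, so the run cannot show whether that assumption holds. Calls of a change of 10% and members under 10 TPM were not tested in this way. Alternatives were another pseudocount, the authors' means, other filters, scalings, thresholds and confidence level, and sums over near-identical copies. Python 3.11.15, scipy 1.17.1, numpy 2.4.6, matplotlib 3.10.9 and pandas 2.3.3 were used.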

Additional observations from a re-analysis of the deposited data

How the results depend on the processing

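No paired analysis was possible because mice were pooled into 1 library per genotype. With a threshold of 20% in place of 10%, 2 members were lower (Insig1 and Mylip) in place of 11. Apart from Acat2, at -0.075 summed with Acat3 in place of -0.18, no other setting moved a count by over 1.5 times. None moved a median by more than the median distance from middle to end of its genes' intervals. This is a wide limit, since for the members it was 0.081 and their median was -0.048. A move of that median to 0 would have stayed within it. The count of members lower by 10% or more was 8 to 11 under the other settings, with 8 once Acat2, Idi1 and Fdps, which share over 10% of their windows with other genes, were left out. The count below 0 was 22 with the authors' means, 23 with changes centred on the median gene and 25 in the main setting. The median of the members ran from -0.063, with each library rescaled to the same TPM sum, to -0.035, with centring. The median of the SREBP2 control genes changed sign, from -0.0077 to 0.0041 with the authors' means and 0.0054 with centring, so no direction was read from it. Leaving out shared genes, summing Acat2 with Acat3 and rescaling to the same sum were chosen after seeing the data. Depth limits the low members, and the pooling of mice limits every value, since a difference of 10% between 2 pools cannot be set against the spread between mice.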
